A study of Mus musculus with 8 samples.

Results

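The genes described here make cholesterol and fatty acids, burn fatty acids, or carry and store them. They are 52 genes chosen by name: 15 enzymes of cholesterol synthesis, 5 genes that control the sterol-sensing transcription factors, 3 sterol transport genes, 13 fatty acid synthesis genes, 7 fatty acid oxidation genes and 9 genes of fatty acid uptake, activation, binding and storage. Of the 52, 42 had a row in the deposited table of 8278 genes. The other 10, *Srebf1*, *Scap*, *Abcg1*, *Acss2*, *Elovl1*, *Acadvl*, *Hadhb*, *Acsl1*, *Cd36* and *Pnpla2*, were outside the deposited selection, so their expression was not analysed here. Bulk RNA-Seq was performed on mouse cardiac endothelial cells (MCECs), an established cell line. The 4 *Hdac3* KO libraries came from MCECs made stable knockouts by lentivirus carrying an *Hdac3* sgRNA in the lentiCRISPR v2 vector, which encodes Cas9, and the 4 EV libraries came from MCECs transduced with empty vector lentivirus. Both groups share the cell line, its serum-supplemented culture and a lentiviral transduction. HDAC3 is a histone deacetylase that works within corepressor complexes, and the comparison asks which transcripts differ in MCECs when it is targeted. The sources do not state whether the KO cells are 1 clone or whether these libraries came from separate cultures, and the study speaks of both technical and biological replicates. The p-values therefore measure only the spread between these libraries, which may be technical.

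The libraries held 15775327 to 21262575 reads in EV and 19356714 to 22255684 in *Hdac3* KO MCECs. Normalized counts, used throughout, are reads divided by the relative TMM-scaled size of the library. *Hdac3* itself had 1943 to 2147 normalized counts in EV and 1465 to 1558 in KO libraries, a log2 fold change of -0.45 ± 0.04 (SE). These counts cover the whole gene and do not show how many alleles were cut. The paper reports a western blot for HDAC3 protein as its check of the knockout in MCECs. All rows of the table have a deposited adjusted p under 0.05 for the same comparison, and edgeR called 96.7% of them here at an adjusted p under 0.01, with 47.1% of all rows higher and 49.6% lower in *Hdac3* KO, and rose and fell are used only of genes past this threshold. Counts of lipid genes are therefore a description to be read beside these shares. Of 20 endothelial markers, 8 had a row, of which 6 fell and 2 rose, with a median log2 fold change of -0.28. Their summed level was 8078 to 8461 normalized counts in EV and 7324 to 7576 in KO libraries, most of it *Cd34* (94.3 FPKM, reads per kilobase of gene scaled to library depth, in EV), while *Pecam1* had 0 to 1 reads per EV library and 2 to 9 per KO library. Of 14 fibroblast and smooth muscle markers, 8 had a row, with summed levels of 131503 to 138582 in EV and 119485 to 122920 in KO libraries, and *Col1a1* and *Col3a1* stood at 373 and 742 FPKM in EV. The other 12 endothelial markers were outside the selection, so the rows leave the endothelial label unshown, and the cells are called MCECs as labelled. That sum is mostly these collagens. Of the 8 fibroblast and smooth muscle markers 7 fell and 1 rose, 5 were lower by 0.5 or more and the median log2 fold change was -1.32, and their part in the lipid results was not tested. Of 8 adipocyte markers, 2 had a row, with summed levels of 282 to 320 in EV and 361 to 402 in KO libraries, and of 10 macrophage markers 1 had a row, at 124 to 137 in EV and 279 to 314 in KO. Most of the adipocyte sum is *Lipe* (mean 289 in EV and 357 in KO), which is also counted among the further fatty acid handling genes below. Among 10 cardiomyocyte markers, 2 had a row, of which 1 rose and 1 fell, with summed levels of 59.3 to 82.5 in EV and 35.7 to 46.1 in KO libraries.

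Cells build cholesterol from acetyl-CoA through mevalonate, isoprenoid units and squalene, which is closed to lanosterol and trimmed to cholesterol. When sterols in the endoplasmic reticulum run low, SCAP carries SREBP transcription factors to the Golgi, where they are cut and released to switch on the enzymes of this route, whereas INSIG proteins hold SCAP back when sterols are plentiful. SREBPs also act on the genes that build and desaturate fatty acids, and mitochondria burn long-chain fatty acids once the carnitine shuttle has let them in. Endothelial cells take up fatty acids from blood and pass them to the heart muscle, which relies on them as fuel.

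The lipid genes split by route. In *Hdac3* KO MCECs all 15 cholesterol synthesis enzymes rose, 10 of 11 fatty acid synthesis genes rose and 1 fell, 4 of 5 fatty acid oxidation genes fell, and the 6 handling genes divided into 3 higher and 3 lower. Together 31 of the 42 rose and 10 fell by edgeR, with 1 past neither side, and their median log2 fold change was 0.50 against 0.06 over all 8278 genes. By a size of at least 0.5 on the log2 scale, 21 were higher against 15.1% of all rows, and 4 were lower against 23.4%. The 4 became 2 without EV library 2 or without KO library 3, since *Abca1* and *Cpt2* lie close to that size. The 2 groups of libraries did not overlap for 41 of the 42 genes, against 91.1% of all rows. In bulk RNA, a change in the share of cells and a change in RNA per cell cannot be told apart.

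**Figure D1:**
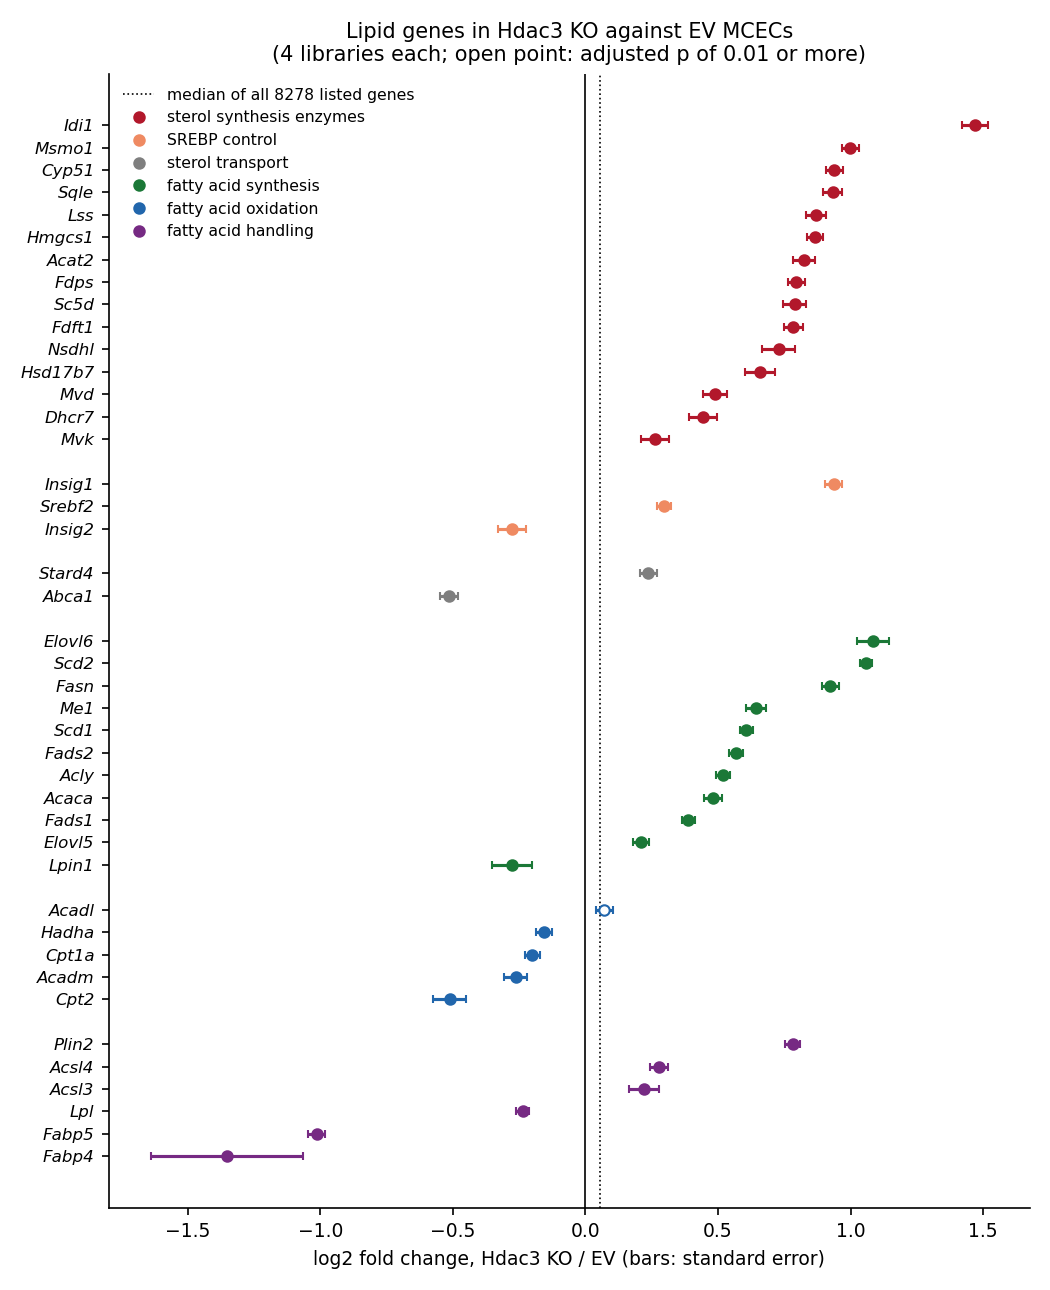
Log2 fold change of *Hdac3* KO over EV (x axis) for the 42 lipid genes with a row, ordered by group, with standard errors, 4 libraries per group. Sterol enzymes lie between 0.26 and 1.47 and fatty acid oxidation genes between -0.51 and 0.07, and the dotted line is the median of all listed genes, 0.06.

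The 15 member enzymes of cholesterol synthesis all moved in the same direction, whereas *Ebp*, a further enzyme of the route described below, fell. All 15 had a row, all 15 were higher in *Hdac3* KO, and 12 were higher by 0.5 or more. Their log2 fold changes had a median of 0.80 and ran from 0.26 to 1.47, with 11 of them between 0.65 and 1. Set among all listed genes, 12 of the 15 lay at or above percentile 90 of the log2 fold change. The 15 genes sit on 12 chromosomes and differ in level, from 5.41 FPKM (*Hsd17b7*) to 74.8 FPKM (*Fdps*) in EV MCECs. Summed over the 15, they had 16002 ± 249 normalized counts (SD, n = 4) in EV and 28664 ± 428 in KO, a ratio of 1.79, or 1.65 on library totals without TMM scaling. The 12 enzymes described by library below had edgeR adjusted p between 6.8e-25 and 1.6e-12.

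At the head of the route, *Acat2* joins acetyl-CoA units in the cytosol and *Hmgcs1*, the cytosolic HMG-CoA synthase, adds a further unit. *Hmgcs1* (chr13:119690462-119708086, mm10) had 2541, 2368, 2459 and 2341 normalized counts in EV libraries 1 to 4 and 4377, 4348, 4584 and 4377 in KO libraries 1 to 4, a log2 fold change of 0.87 ± 0.03 (SE). *Acat2* (chr17:12942890-12960747) had 1170, 1034, 1114 and 1114 against 1810, 2044, 2038 and 1943, a difference of 0.82 ± 0.04. In both, the lowest KO library stood well above the highest EV library. *Acat2* shares 39.1% of its 50-base stretches with the related gene *Acat3*, so its reads may have been split or pooled between them.

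The mevalonate steps *Mvk* and *Mvd* rose by less than the median of the enzymes. *Mvk*, mevalonate kinase, had a mean of 519 ± 24.7 (SD, n = 4) normalized counts in EV and 624 ± 37.8 in KO, a log2 fold change of 0.26 ± 0.05 (edgeR adjusted p = 4.6e-05). Without TMM scaling, its value was 0.15 and no longer passed (edgeR adjusted p = 0.015). *Mvd*, the decarboxylase that ends this stretch, rose by 0.49 ± 0.05 (edgeR adjusted p = 9.4e-12), from 792 ± 60.9 to 1115 ± 26.6. The next enzyme, *Idi1*, which isomerizes the isoprenoid unit, had the largest log2 fold change of the 42 genes. *Idi1* (chr13:8885501-8892451) had 465, 427, 437 and 401 normalized counts in EV and 1141, 1163, 1244 and 1222 in KO libraries, a log2 fold change of 1.47 ± 0.05, that is 2.77-fold. No KO library of *Idi1* came near the EV range, and its level per length went from 7.60 ± 0.49 to 19.3 ± 0.76 FPKM (SD, n = 4). Of its 50-base stretches, 17.7% also occur in other annotated genes.

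*Fdps*, the farnesyl diphosphate synthase, and *Fdft1* and *Sqle*, which make squalene and its epoxide, followed. *Fdps* (chr3:89093592-89101967) had 1684, 1722, 1778 and 1794 normalized counts in EV and 3065, 2948, 3116 and 3005 in KO libraries, a log2 fold change of 0.80 ± 0.03. *Fdft1* (chr14:63145153-63177793) had 953, 1001, 968 and 982 against 1702, 1635, 1709 and 1684, a difference of 0.78 ± 0.04. For both genes the spread within a group was small beside the gap between groups. *Sqle* (chr15:59315077-59331192), a rate-limiting oxygenase of the route, had 1381, 1375, 1540 and 1442 against 2702, 2722, 2821 and 2718, a difference of 0.93 ± 0.03. *Fdps* shares 26.2% of its 50-base stretches with other annotated genes, and 18.3% of the exon bases of *Fdft1* lie opposite exons of *Ctsb*, as do 12.1% of those of *Hmgcs1* opposite *Gm48342*. The counting was not stated to use strand, so reads of such neighbours may be included in those values.

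From lanosterol onward, *Lss*, *Cyp51*, *Msmo1*, *Nsdhl*, *Hsd17b7* and *Sc5d* each rose by more than 0.65 on the log2 scale. *Lss* (chr10:76531588-76557138), which closes the sterol rings, had 1009, 1068, 1033 and 1015 normalized counts in EV and 1942, 1959, 1836 and 1798 in KO libraries, a log2 fold change of 0.87 ± 0.04. *Cyp51* (chr5:4081145-4104746), the lanosterol demethylase, had 1669, 1635, 1776 and 1742 against 3221, 3242, 3344 and 3279, a difference of 0.94 ± 0.03. *Msmo1* (chr8:64718139-64733792), a sterol methyl oxidase, had 1580, 1590, 1559 and 1564 against 3015, 3173, 3238 and 3144, a difference of 1.0 ± 0.03. The 4 EV libraries of *Msmo1* agreed within an SD of 14.5 normalized counts, and the lowest KO library, at 3015, lay far above them.

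*Nsdhl* and *Hsd17b7*, which act with *Msmo1* in removing methyl groups, were expressed at lower levels. *Nsdhl* (chrX:72918557-72958514) had 324, 372, 402 and 349 normalized counts in EV and 571, 585, 662 and 582 in KO libraries, a log2 fold change of 0.73 ± 0.06. *Hsd17b7* (chr1:169949535-169969241) had 459, 495, 497 and 425 against 681, 768, 711 and 791, a difference of 0.66 ± 0.06. *Sc5d* (chr9:42254177-42264300), a sterol desaturase, had 878, 887, 909 and 829 against 1400, 1551, 1497 and 1593, a difference of 0.79 ± 0.04. Again no library of one group reached the range of the other. The last enzyme, *Dhcr7*, rose less, by 0.44 ± 0.05 (edgeR adjusted p = 1.8e-09), from 551 ± 25.4 to 752 ± 45.6 (SD, n = 4).

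**Figure D2:**
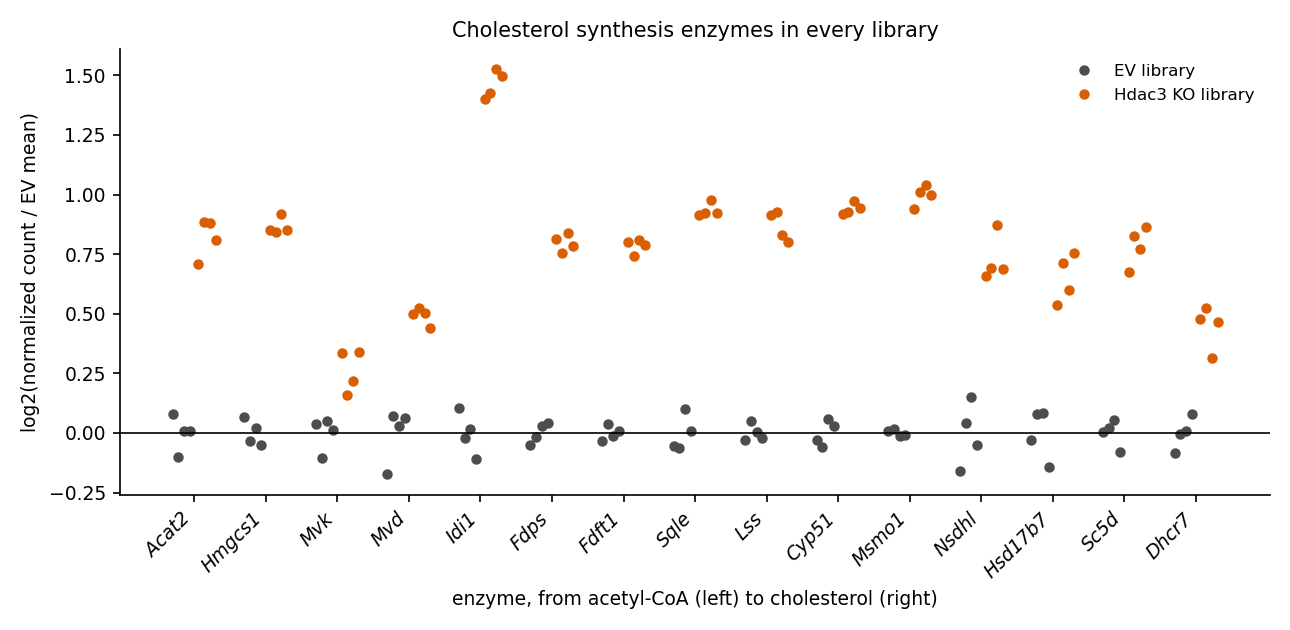
Normalized count of each cholesterol synthesis enzyme in each library, as log2 of its ratio to the EV mean (y axis), with enzymes in the order of the route (x axis). Every orange KO point lies above every grey EV point of the same enzyme, with *Idi1* farthest apart and *Mvk* closest.

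Because these enzymes moved together, the bases around their start sites are shown. Promoter windows of 300 bases (250 before the start to 50 after it) came from RefSeq on GRCm38.p6, and 41 of the 52 genes had one. No entry was held for *Scd1*, *Scd2*, *Lpl*, *Abcg1*, *Fads1*, *Fabp4*, *Fdft1*, *Sqle*, *Fdps*, *Fabp5* or *Stard4*. The letters CCAAT, a box bound by NF-Y, a factor known to act beside SREBPs, were searched on both strands, where the other strand reads ATTGG. They were found in 11 of the 12 sterol enzyme windows, *Acat2* being without, against 37.4% of 32851 windows of all genes and 42.8% of the 6131 windows of listed genes. They were also found in 4 of 5 windows of the control genes, 6 of 10 of the fatty acid synthesis genes, 1 of 7 of the oxidation genes, 4 of 6 of the handling genes and 0 of 1 of the sterol transport genes. The stretches below show a box with its surroundings 5′ to 3′ on the strand of the gene, with the box in capitals, for 6 of the 8 sterol enzymes in which the box nearest the start lies before it, taken as examples, for *Insig1* and *Srebf2*, for *Fasn* and for *Cpt1a*, the oxidation gene that holds it.
Idi1, chr13:8885580-8885609, plus strand: gtccaaggtgccATTGGctggcgaccgaca
Lss, chr10:76531531-76531560, plus strand: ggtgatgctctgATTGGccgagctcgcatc
Cyp51, chr5:4104709-4104738, minus strand: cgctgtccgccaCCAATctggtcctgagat
Msmo1, chr8:64733616-64733645, minus strand: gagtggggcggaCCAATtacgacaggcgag
Sc5d, chr9:42264307-42264336, minus strand: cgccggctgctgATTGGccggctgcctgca
Mvk, chr5:114444243-114444272, plus strand: tccagctctctgATTGGcctcaggaagaca
Insig1, chr5:28071184-28071213, plus strand: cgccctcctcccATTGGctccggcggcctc
Srebf2, chr15:82147122-82147151, plus strand: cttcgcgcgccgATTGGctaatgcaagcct
Fasn, chr11:120824589-120824618, minus strand: cctcggtgtccaATTGGtttcgatgtggag
Cpt1a, chr19:3323270-3323299, plus strand: agctgggctcagCCAATcacccgcggcgcg

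In these stretches the centre of the box lies 12 bases before the RefSeq start in *Idi1* and *Mvk*, 60 in *Lss*, 27 in *Cyp51*, 53 in *Msmo1*, 22 in *Sc5d*, 214 in *Insig1*, 133 in *Srebf2*, 57 in *Fasn* and 17 in *Cpt1a*. By the gene coordinates given above, the stretches of *Idi1*, *Cyp51* and *Msmo1* lie inside the gene, after its start. The RefSeq start and the start in those coordinates therefore differ for these genes. GGGCGG, a box bound by Sp1 (CCGCCC on the other strand), was in all 12 sterol enzyme windows, against 35.7% of all windows and 71.1% of those of listed genes. This box was also in 5 of 5 windows of the control genes, 6 of 6 of the handling genes and 1 of 1 of the sterol transport genes. Fatty acid synthesis genes held it in 5 of 10 windows and oxidation genes in 5 of 7. CACGTG, an E-box, was in 3 of the 12 (*Dhcr7*, *Hsd17b7* and *Sc5d*), against 7.15% and 12.3%. TCACNCCA, one spelling of the sterol regulatory element that SREBPs bind (TGGNGTGA on the other strand), was in 2 of the 12, *Hmgcs1* and *Msmo1*, and in *Srebf2* and *Acsl1* of the other members, against 4.36% and 4.5%. Its last letters, CCA, can also begin a CCAAT box. Such matches describe letters only and no binding was measured.

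The genes that set SREBP activity did not move in one direction. *Srebf2* encodes SREBP2, the main driver of cholesterol synthesis genes and itself among its targets, and INSIG1 and INSIG2 retain SCAP. *Insig1* (chr5:28071363-28078662) had 1542, 1577, 1583 and 1642 normalized counts in EV and 3035, 3109, 3021 and 2987 in KO libraries, a log2 fold change of 0.94 ± 0.03 (edgeR adjusted p = 3.9e-24). *Srebf2* (chr15:82147266-82205376) had 5090, 5518, 5203 and 5292 against 6719, 6470, 6433 and 6303, a smaller rise of 0.30 ± 0.03 (edgeR adjusted p = 1.3e-11). In both genes the KO libraries lay above the EV libraries without overlap. *Insig2* (chr1:121304353-121332589) had 603, 578, 644 and 634 against 511, 516, 499 and 504 and fell by 0.28 on the log2 scale (SE 0.05, edgeR adjusted p = 1.0e-05). The log2 ratio of *Insig1* to *Insig2* went from 1.37 ± 0.06 (SD, n = 4) in EV to 2.58 ± 0.02 in KO, and the groups did not overlap (exact permutation test, two-sided, p = 0.0286, adjusted over 6 ratios 0.0429). *Insig1* was higher and *Insig2* lower in every KO library than in any EV library. Their ratio therefore had to separate the groups, and its p adds no support. With 4 libraries against 4, 0.0286 is the smallest p such a test can give.

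Of the sterol transport genes, the exporter and the carrier went opposite ways. *Abca1* (chr4:53030787-53159895) passes cholesterol and phospholipid to apolipoprotein and is known as a target of the sterol-activated LXR receptors. It had 2951, 3243, 3022 and 2992 normalized counts in EV and 2126, 2186, 2002 and 2220 in KO libraries, a log2 fold change of -0.52 ± 0.03 (edgeR adjusted p = 1.1e-15). All 4 KO libraries of *Abca1* lay below the EV range. *Stard4*, a soluble sterol carrier and known SREBP2 target, rose from 1889 ± 61.8 (SD, n = 4) to 2226 ± 35.1, by 0.24 ± 0.03 (edgeR adjusted p = 3.8e-08).

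Fatty acid synthesis genes were also mostly higher. Of the 11 with a row, 10 were higher and 1 lower in *Hdac3* KO, 7 were higher by 0.5 or more (4 without TMM scaling), and the median log2 fold change was 0.57. Summed, they had 71712 ± 1239 normalized counts (SD, n = 4) in EV and 123728 ± 1518 in KO, a ratio of 1.73, or 1.59 without TMM scaling. Much of this total is *Scd2*, which had the highest level per length of all members, 284 ± 4.0 FPKM in EV and 546 ± 7.8 FPKM in KO (SD, n = 4). The 7 genes given by library had edgeR adjusted p between 3.6e-29 and 2.9e-17.

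The supply of carbon and reducing power comes from *Acly*, which releases cytosolic acetyl-CoA from citrate, and from *Me1*, the malic enzyme that yields NADPH. *Acly* (chr11:100476353-100528000) had 3713, 3901, 3689 and 3811 normalized counts in EV and 5505, 5427, 5345 and 5397 in KO libraries, a log2 fold change of 0.52 ± 0.03. *Me1* (chr9:86581371-86695953) had 1390, 1244, 1330 and 1216 against 2023, 2035, 1973 and 2050, a difference of 0.64 ± 0.04. The KO libraries of both genes were tightly grouped and above all EV libraries. Of the 50-base stretches of *Me1*, 22.9% recur in other annotated genes. *Acaca*, the acetyl-CoA carboxylase that commits carbon to fatty acids, rose by 0.48 ± 0.03 (edgeR adjusted p = 1.0e-14), from 2215 ± 116 to 3092 ± 121 (SD, n = 4), and shares 30.4% of its stretches.

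*Fasn*, the synthase that builds palmitate, had a larger log2 fold change than the enzymes that feed it. *Fasn* (chr11:120805940-120824178) had 5908, 6683, 6296 and 6173 normalized counts in EV and 12267, 12259, 11199 and 11812 in KO libraries, a log2 fold change of 0.92 ± 0.03. Its KO values were between 11199 and 12267 and none of the EV values exceeded 6683. *Elovl6*, which lengthens palmitate, had the largest log2 fold change of the group. *Elovl6* (chr3:129532386-129638495) had 316, 343, 308 and 318 against 634, 671, 684 and 735, a 2.12-fold increase (log2 SE 0.06). Its level per length was the lowest of the synthesis group in EV, at 2.87 ± 0.13 FPKM, and was 5.61 ± 0.33 FPKM in KO (SD, n = 4). *Elovl5*, which lengthens polyunsaturated fatty acids and stood at 53.1 ± 1.3 FPKM in EV, rose by 0.21 ± 0.03 (edgeR adjusted p = 8.3e-08). The log2 ratio of *Elovl6* to *Elovl5* was 0.87 higher in KO, with no overlap (exact permutation test, two-sided, p = 0.0286, adjusted over 6 ratios 0.0429).

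Related desaturases rose to different extents. *Scd1* and *Scd2* encode stearoyl-CoA desaturases, which make monounsaturated fatty acids. *Scd2* (chr19:44293676-44306864) had 28693, 29754, 29107 and 28885 normalized counts in EV and 61865, 60341, 60357 and 60121 in KO libraries, a log2 fold change of 1.06 ± 0.02. *Scd1* (chr19:44394451-44407709) had 7754, 7946, 7465 and 7792 against 11750, 11855, 11490 and 12071, a difference of 0.61 ± 0.03. Both were higher in every KO library, and the log2 ratio of *Scd2* to *Scd1* rose from 1.91 ± 0.04 (SD, n = 4) to 2.36 ± 0.04 (exact permutation test, two-sided, p = 0.0286, adjusted over 6 ratios 0.0429). The pair lies close together on chromosome 19, and 3.97% of the 50-base stretches of *Scd2* and 4.56% of those of *Scd1* occur in other Scd genes. *Fads2* and *Fads1*, which desaturate polyunsaturated fatty acids in turn, are also neighbours there. *Fads2* (chr19:10064164-10101503) had 7283, 7272, 7591 and 7633 against 11290, 10903, 11031 and 10946, a difference of 0.57 ± 0.03. *Fads1* rose from 10409 ± 267 (SD, n = 4) to 13624 ± 128, by 0.39 ± 0.02 (edgeR adjusted p = 4.7e-16), and the log2 ratio of *Fads2* to *Fads1* was 0.18 higher in KO with the same exact p of 0.0286, adjusted 0.0429.

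*Lpin1* was the synthesis gene that fell. It encodes lipin 1, a phosphatidate phosphatase that supplies diacylglycerol for triglyceride synthesis and that also acts as a coactivator of oxidation genes. Normalized counts of *Lpin1* averaged 356 ± 33.0 (SD, n = 4) in EV and 294 ± 25.6 in KO, a log2 fold change of -0.28 ± 0.07 (edgeR adjusted p = 8.5e-04). It was the member whose groups overlapped, since EV library 1 at 309 lay below KO library 2 at 323.

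**Figure D3:**
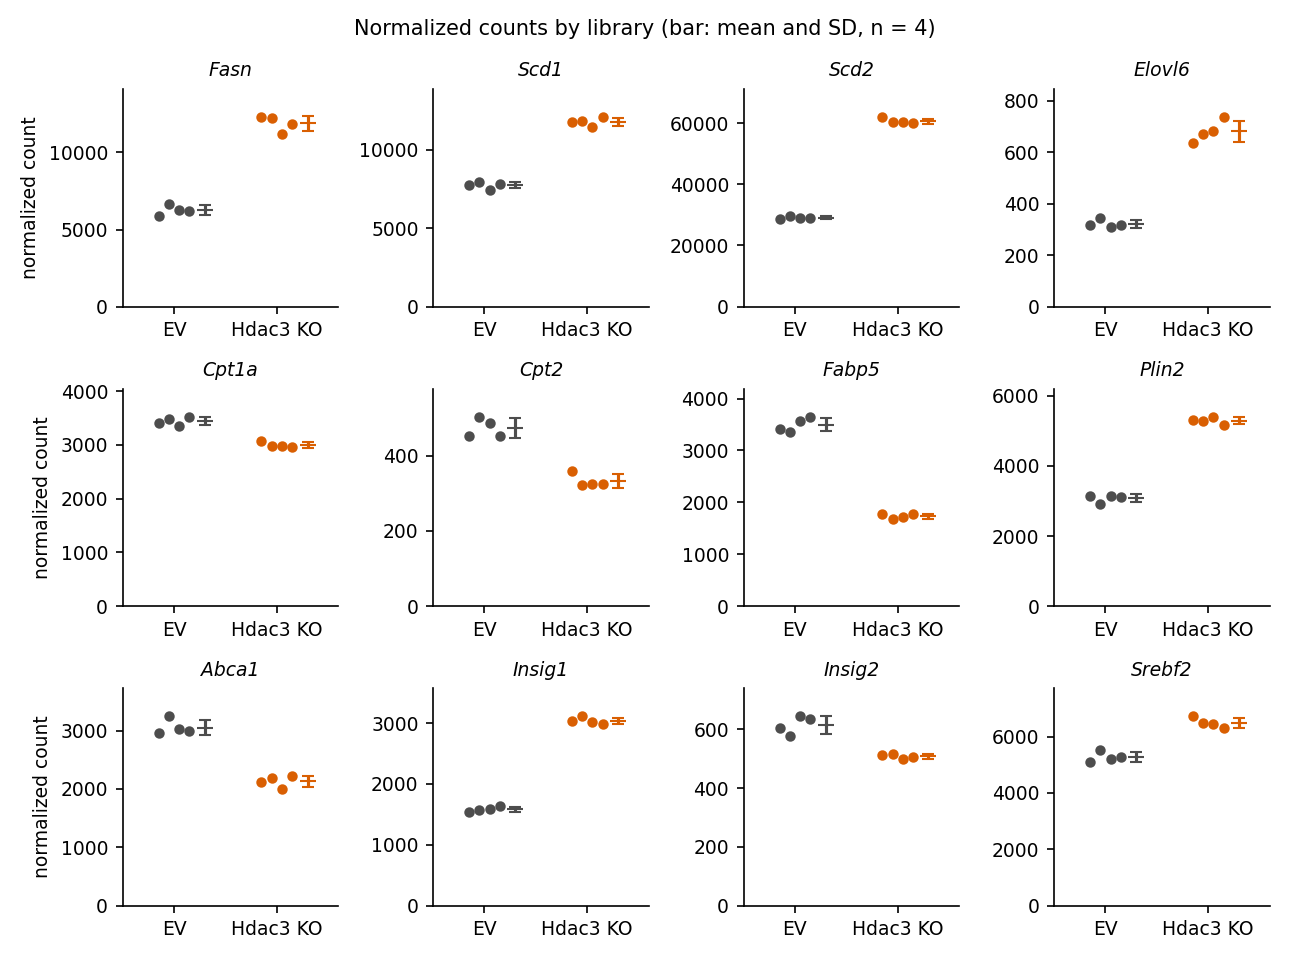
Normalized counts (y axis, from 0) of 12 lipid genes in each EV (grey) and *Hdac3* KO (orange) library, with the mean and SD of 4 libraries beside the points. *Fasn*, *Scd1*, *Scd2*, *Elovl6*, *Plin2*, *Insig1* and *Srebf2* are higher and *Cpt1a*, *Cpt2*, *Fabp5*, *Abca1* and *Insig2* lower in every KO library than in any EV library.

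Fatty acid oxidation genes went the other way, by less. Of 5 with a row, 4 fell, 1 passed neither side, and the median log2 fold change was -0.20. Summed, they had 9724 ± 85.7 normalized counts (SD, n = 4) in EV and 8806 ± 12.9 in KO, a ratio of 0.906, or 0.835 without TMM scaling. Only *Cpt2* was lower by 0.5 or more, against 23.4% of all listed genes, and it fell short of that size when any of EV libraries 2 and 3 or KO libraries 2, 3 and 4 was left out. *Cpt1a* encodes the outer carnitine palmitoyltransferase, the gate of mitochondrial fatty acid entry, and *Cpt2* the inner enzyme that returns the acyl group to CoA. *Cpt2* (chr4:107903981-107923610) had 452, 503, 488 and 451 normalized counts in EV and 359, 322, 324 and 324 in KO libraries, a log2 fold change of -0.51 ± 0.06 (edgeR adjusted p = 3.6e-09). KO library 1 was the highest of its group and still below all EV libraries. *Cpt1a* fell by 0.20 on the log2 scale (SE 0.03, edgeR adjusted p = 8.6e-08), from 3446 ± 74.8 to 3000 ± 52.0 (SD, n = 4).

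Within the oxidation spiral, *Acadm* and *Acadl*, the medium- and long-chain acyl-CoA dehydrogenases, differed. *Acadm* went from 847 ± 15.1 (SD, n = 4) to 705 ± 19.2, a log2 fold change of -0.26 ± 0.04 (edgeR adjusted p = 1.6e-06). *Hadha*, the alpha subunit of the trifunctional protein, went from 2867 ± 72.3 to 2573 ± 38.0, a change of -0.16 ± 0.03 (edgeR adjusted p = 1.2e-05). *Acadl* had 2125, 2023, 2093 and 2118 normalized counts in EV and 2148, 2171, 2254 and 2209 in KO libraries, a value of 0.07 ± 0.03 that did not pass (edgeR adjusted p = 0.03), and was -0.05 without TMM scaling. Its deposited FPKM, which carry no such scaling, were 58.0 ± 1.4 in EV and 56.2 ± 1.1 in KO.

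Genes that handle fatty acids were mixed. *Plin2*, a coat protein of lipid droplets, rose, whereas the fatty acid binding proteins fell. *Plin2* (chr4:86648386-86670060) had 3134, 2903, 3154 and 3121 normalized counts in EV and 5323, 5278, 5400 and 5176 in KO libraries, a log2 fold change of 0.78 ± 0.03 (edgeR adjusted p = 8.7e-23). *Fabp5* (chr3:10012548-10016607), the epidermal-type binding protein also found in endothelium, had 3414, 3363, 3569 and 3646 against 1776, 1673, 1721 and 1767, a change of -1.01 ± 0.03 (edgeR adjusted p = 1.0e-24). Every KO library of *Fabp5* held well below the lowest EV value, 3363. *Fabp4* (chr3:10204347-10208576), known from adipocytes and capillary endothelium, was low throughout, with 21.4, 24.4, 25.1 and 18.6 against 9.47, 8.23, 9.42 and 7.5, a change of -1.35 ± 0.29 (edgeR adjusted p = 6.0e-05). Its KO libraries held 8 to 10 reads each, so its size is imprecise, and the log2 ratio of *Fabp5* to *Fabp4* overlapped between groups, being 0.27 higher in KO (exact permutation test, two-sided, p = 0.143, adjusted over 6 ratios 0.171).

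*Lpl*, the lipase that frees fatty acids from circulating triglyceride, fell by 0.24 on the log2 scale (SE 0.03, edgeR adjusted p = 4.1e-10), from 8275 ± 67.8 to 7017 ± 216 (SD, n = 4). *Acsl3* and *Acsl4* activate long-chain fatty acids by joining them to CoA. *Acsl4* rose by 0.28 ± 0.03 (edgeR adjusted p = 2.6e-09), from 1594 ± 22.3 to 1931 ± 54.9. *Acsl3* rose by 0.22 ± 0.06 (edgeR adjusted p = 4.5e-04), from 461 ± 25.4 to 535 ± 17.6, and without TMM scaling its value was 0.10 and did not pass (edgeR adjusted p = 0.083). The log2 ratio of *Acsl4* to *Acsl3* differed by 0.06 between groups, with overlap (exact permutation test, two-sided, p = 0.2, adjusted over 6 ratios 0.2). The 6 handling genes together had 16928 ± 169 normalized counts in EV and 16521 ± 273 in KO (SD, n = 4), a ratio of 0.976, or 0.900 without TMM scaling, and this sum was not tested.

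**Figure D4:**
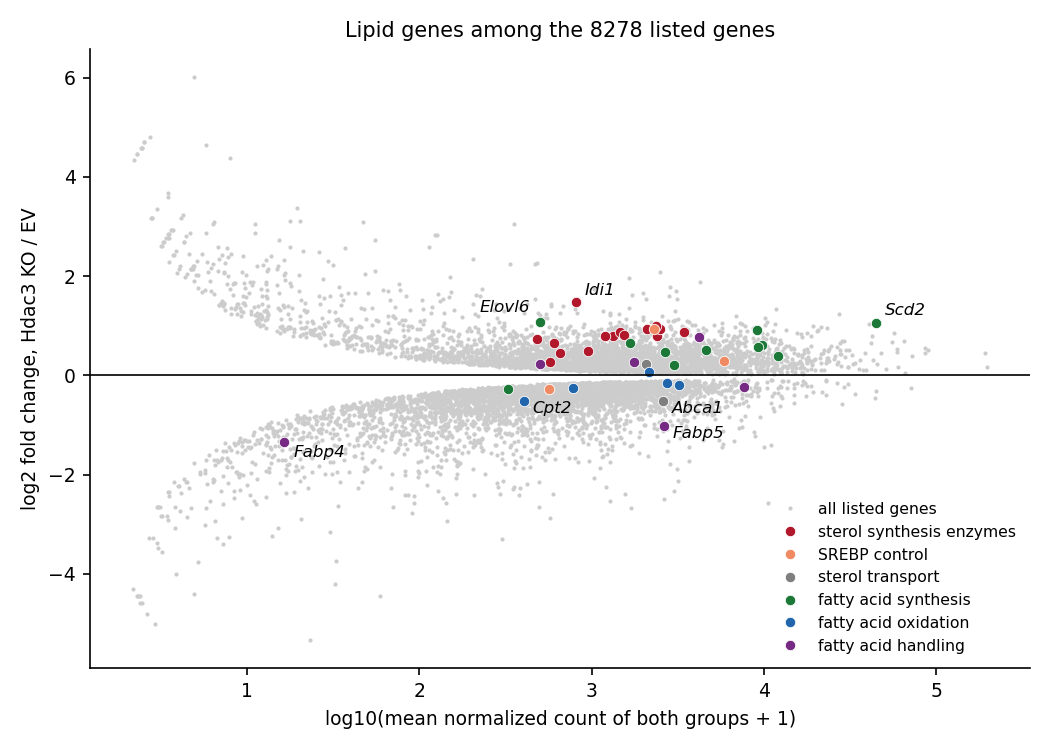
Log2 fold change of *Hdac3* KO over EV (y axis) against log10 of the mean normalized count plus 1 (x axis) for all 8278 listed genes in grey, with the 42 lipid genes coloured by group. All 15 sterol enzymes lie above 0, and *Scd2* has the highest mean count of the members.

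Other genes of the same routes were taken from lists drawn up with earlier results known. Of 30 further sterol genes 22 had a row, of which 12 rose, 9 fell and 1 did not pass, with a median log2 fold change of 0.19. Among all listed genes 47.1% rose and 49.6% fell. The counts of this list and of those that follow are to be read beside these shares. Among the highest were *Lrp8*, a lipoprotein receptor (log2 fold change 1.53 ± 0.14 SE), and *Soat2*, a sterol acyltransferase with 1 to 7 reads per EV library and 19 to 25 per KO library. The lowest were *Mylip*, the ligase that degrades lipoprotein receptors (-1.15 ± 0.12), *Osbpl1a*, of the oxysterol-binding protein family (-0.67 ± 0.05), and *Nr1h2*, the LXR beta receptor (-0.45 ± 0.04). The other LXR receptor gene, *Nr1h3*, also named after its value was seen, rose, with a log2 fold change of 0.74. *Ebp*, a sterol isomerase of the synthesis route named here after its value was seen, stood apart from the member enzymes with a log2 fold change of -0.37.

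Of 33 further fatty acid and glycerolipid synthesis genes 17 had a row, of which 9 rose and 8 fell, with a median of 0.10. This split is near that of all listed genes, 47.1% higher and 49.6% lower. *Dgat2*, a triglyceride synthase (0.95 ± 0.09), *Elovl4*, an elongase of very long chains (0.92 ± 0.25), and *Fads3*, of the desaturase family (0.67 ± 0.03), were highest. *Hacd4*, of the dehydratase family of chain elongation and listed as *Ptplad2* (-1.48 ± 0.04), *Acacb*, the mitochondrial acetyl-CoA carboxylase (-0.63 ± 0.11), and *Me3*, a mitochondrial malic enzyme (-0.49 ± 0.08), were lowest.

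Of 39 further oxidation genes 25 had a row, of which 19 fell and 6 rose, and 6 were lower by 0.5 or more, a share close to the 23.4% of all listed genes, the median being -0.31 on the log2 scale. *Ppargc1a*, a coactivator of mitochondrial genes, was lowest, from 36.6 ± 13.7 (SD, n = 4) to 9.23 ± 3.0 normalized counts (log2 fold change -1.96, edgeR adjusted p = 5.8e-07), followed by *Acad12* (-0.65 ± 0.11). *Ehhadh*, of peroxisomal oxidation, rose (0.68 ± 0.16), and *Abcd2*, a peroxisomal transporter, had 0 to 2 reads per EV library and 2 to 7 per KO library. Of 25 further handling genes 14 had a row, of which 9 fell and 5 rose, with a median of -0.29. *Lipg*, the endothelial lipase (-1.04 ± 0.06), *Mgll*, monoglyceride lipase (-1.0 ± 0.03), and *Plin3*, a droplet coat protein (-0.65 ± 0.03), were lowest. *Fitm2* (0.46 ± 0.07) and *Hilpda* (0.55 ± 0.09), which promote lipid droplets, rose, as did *Angptl4*, an inhibitor of lipoprotein lipase, with 3 to 7 reads per EV library and 24 to 34 per KO library.

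**Figure D5:**
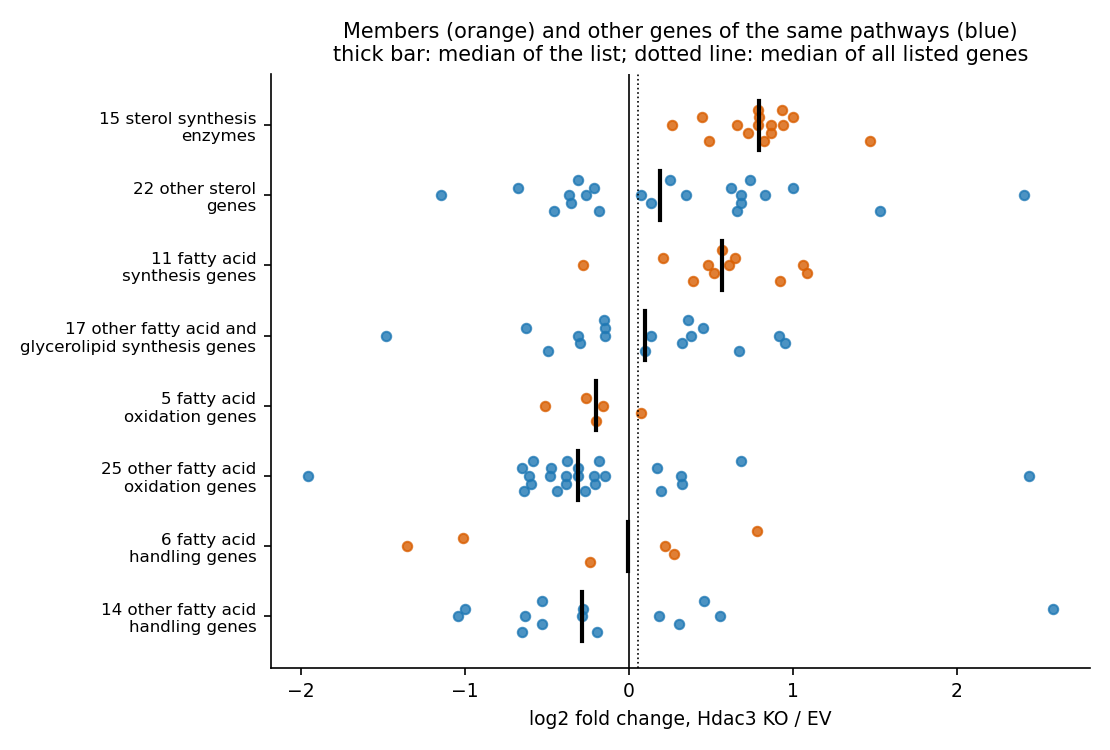
Log2 fold change of *Hdac3* KO over EV (x axis) of each member (orange) and of each further gene of the same routes (blue), with the median of each list as a thick bar. Medians are 0.80 and 0.19 for sterol genes, 0.57 and 0.10 for synthesis, -0.20 and -0.31 for oxidation and -0.01 and -0.29 for handling genes, against 0.06 for all listed genes.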

How the data were processed

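The authors had RNA of 4 EV and 4 *Hdac3* KO MCEC samples sequenced and aligned the reads with tophat2 and bowtie2 (build mm10); the methods also name lumi and cufflinks, and the program that counted reads is not given in the sources used here. The deposited counts are whole reads assigned to each gene, not normalized. The deposited FPKM are scaled by gene length and library total by the authors. The deposited group means are a signal, counts divided by the authors' size factors, and the deposited log2 fold changes and p-values are the authors' own comparison (DESeq2); none of these were used, except to establish that all 8278 rows have the authors' adjusted p under 0.05. The submitters' processing notes name CASAVA and DESeq 1.6.3.

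Library totals were recovered from counts, lengths and FPKM. Listed genes held 84.3% to 84.4% of EV and 85.8% to 85.9% of KO reads. Counts were tested with edgeR 4.0.16 (R 4.3.3, quasi-likelihood test, TMM factors on those totals, all 8278 genes, no low-count filter), Benjamini-Hochberg adjusted over all genes, with a cut-off of 0.01. The common biological coefficient of variation was 2.82%. Normalized counts are counts divided by relative TMM library size. Ratios of related genes used log2(count + 1). On simulated counts with these library totals edgeR recovered 86 of 100 genes changed by 0.5 and 98 of 100 changed by 1 (log2). It gave 2 false calls over 8278 genes, of which 200 were changed, equally up and down, with the same dispersion for all. In the data 96.7% of listed genes were called, so these rates may not hold for them. Replicate libraries differed by more than sampling noise (chi-square per degree of freedom 1.80 to 3.67) and were counted separately. Members and lists were chosen with earlier results of these data known. Library values are given for members past the cut-off with a log2 fold change of at least 0.5 either way and no overlap, and for *Srebf2* and *Insig1*, and those of *Insig2* and *Acadl* were added after they were seen. Of other route genes, the 3 lowest and 3 highest were named, apart from some that are not reported here. Sequence sharing was computed over 50-base stretches of GENCODE transcripts on mm10. Alternatives were DESeq2 1.42.0, its size factors, totals without TMM, sums of listed genes, a mean count of 10 or more, a replicate block, protein-coding genes only, omission of every library in turn, adjustment over 30000 genes and a cut-off of 0.05.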

Additional observations from a re-analysis of the deposited data

Results flagged for a closer look

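In 8 of 84 groups of 4 libraries, 1 library lay far from the other 3 by Dixon's test at the 95% level, where chance gives about 4.2, or 1 in 20. KO library 3 was the far library for 3 sterol enzymes, each time as the highest of its group. It had 4584 normalized counts of *Hmgcs1* against 4348 to 4377 in the others, 2821 of *Sqle* against 2702 to 2722, and 662 of *Nsdhl* against 571 to 585. KO library 1 was highest for *Scd2*, at 61865 against 60121 to 60357, for *Cpt1a*, at 3078 against 2965 to 2981, and for *Cpt2*, at 359 against 322 to 324. EV library 2 was lowest for *Hadha*, at 2760 against 2895 to 2916, and for *Plin2*, at 2903 against 3121 to 3154. In each case the far library stayed on its own side of the other group. Over the 8 single-library omissions, log2 fold changes ran from 0.85 to 0.89 for *Hmgcs1*, 0.91 to 0.97 for *Sqle* and 0.68 to 0.78 for *Nsdhl*.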

How the results depend on the processing

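The setting that moved most values was library totals without TMM scaling, which shifted the median of all 8278 genes by -0.12 on the log2 scale. Under it the medians were 0.68 for sterol enzymes, 0.18 for control genes, -0.26 for sterol transport, 0.45 for fatty acid synthesis, -0.32 for oxidation and -0.13 for handling, of all listed genes 2671 in place of 3895 were called higher and 4120 in place of 4107 lower, 829 in place of 1249 were higher by 0.5 or more and 2515 in place of 1935 lower by 0.5 or more, and *Acadl* turned to -0.046 (edgeR adjusted p = 0.164). This setting moves all genes by nearly the same amount, so the order of the 6 medians could not change. Under it 39 members passed in place of 41, *Mvk* and *Acsl3* being lost. With a cut-off of 0.05, *Acadl* passed, giving 1 higher oxidation gene. Leaving out each library in turn, the sterol median ran from 0.79 to 0.83 and no member changed sign. With the replicate block, 41 members passed, as without it, and the sterol median was 0.80. Same-numbered libraries did not deviate together (mean correlation -0.02, range -0.11 to 0.12, over 7187 genes, 0.01 for other pairs). The main test did not pair them, and whether the numbers mark pairs is not stated in the sources. Counts of members by a size of 0.5 were run under every setting after the data had been seen. Leaving out each library, those lower ran from 2 to 4 in all, from 0 to 1 for oxidation and from 0 to 1 for sterol transport, and without TMM scaling 4 in place of 7 synthesis genes were higher. The other counts of members stayed within 1.5 times the reported ones, and among the further genes *Abcd2*, with 0 to 7 reads, lost its call in 5 settings. Depth limits *Fabp4*, *Soat2*, *Angptl4* and *Abcd2*, which have few reads, and the table, being a selection, says nothing of the 10 members without a row.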
